A study of Mus musculus with 237 samples.

Results

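The Sox genes Sox9, Sox4, Sox11, Sox6, Sox13 and Sox21 were followed in single skin cells of mouse embryos at E14.5. They are 6 of the 19 Sox genes, and of the 55335 genes, in the count table, and they were chosen by their levels in earlier work on these cells. The series describes single cells of C57BL/6N embryos, 66 from 3 wild type embryos and 171 from 7 embryos in which Trp63 (p63) had been disrupted with a Cas9 protein and guide RNA at the zygote stage. Every cell gave a separate library by SMART-Seq HT, a plate method that copies full-length cDNA and adds no molecular identifiers. Cells had been sorted as negative for propidium iodide, CD45, TER119 and CD140a, and cDNA was then picked by qPCR, on Krt5 for wild type and on Krt8 for knockout. Wild type epidermis was peeled off with dispase, whereas knockout fetuses were digested whole, so that genotype, preparation and screening cannot be told apart.

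Columns of the count table carry sequencing run names only. A total of 16 columns could be tied to a labelled cell, all from wild type embryo WT01. Of these, 11 are labelled basal layer, 4 K17 high and 1 intermediate layer. The other 221 columns have no genotype, embryo or cell type here, and all columns were therefore treated as 1 pool. Cells of 1 embryo are not replicates, so that no test of a difference, SD or p-value was computed, and values are given per cell or as ranges and medians. Levels are given as CPM, the rounded count per 1000000 counts of the column. The total was 2701500 to 19197138 counts per column (median 6938031), so that 10 CPM, the level called present below, stood for at least 28 counts. Of the counts above 0, 99.3% were even numbers for Sox9 and 75.8% over all genes, as when both mates of a read pair are counted. The 95% Poisson and exact binomial intervals cover counting error only, and the Poisson intervals are too narrow to the extent that mates were counted separately.

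Sox proteins bind the minor groove of DNA through a high mobility group (HMG) box and are grouped by the similarity of this box. Sox9 belongs to the SoxE group with Sox8 and Sox10, and is known in skin as a factor of hair follicle stem cells and of the suprabasal cells of the early hair placode, and elsewhere as the master factor of cartilage. Sox4 and Sox11 are the SoxC factors of embryonic progenitors, with Sox12 as the third of the group. Sox6 and Sox13 belong, with Sox5, to the SoxD group, which lacks an activation domain and acts through partners. Sox21 is a SoxB factor known for its part in hair shaft differentiation.

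The 6 genes lie on different chromosomes of GRCm38 (GENCODE M21). Sox9 spans chr11:112782224-112787760 on the plus strand, and the others lie on the minus strand. Sox4 spans chr13:28948919-28953713, Sox11 chr12:27334264-27342574, Sox6 chr7:115470872-116038796, Sox13 chr1:133382303-133424377 and Sox21 chr14:118233232-118237030. Since family members resemble each other, the coding sequences were searched for the longest exact stretch that 2 members share, which bears on whether a read can be assigned to its gene. The sequences are from the GENCODE transcripts. Sox9 shared 24 bases with both Sox11 and Sox21, within the HMG box. The closest stretch of each member is shown here because it is the part that all 6 have in common, with capitals for bases that differ from Sox9.
Sox9: cccatgaacgccttcatggtgtgg
Sox11: cccatgaacgccttcatggtgtgg
Sox21: cccatgaacgccttcatggtgtgg
Sox4: cccatgaacgccttTatggtgtgg
Sox13: cccatgaaTgccttcatggtgtgg
Sox6: ccAatgaaTgcGttcatggtTtgg
It lies in exons at chr11:112782906-112782929 for Sox9, chr12:27342232-27342255 for Sox11, chr14:118235582-118235605 for Sox21, chr13:28952815-28952838 for Sox4, chr1:133385539-133385562 for Sox13 and chr7:115489736-115489759 for Sox6. Sox4 and Sox13 differed from Sox9 at 1 base and Sox6 at 4 bases.

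The longest stretch shared by any 2 of the 6 coding sequences was 48 bases in Sox4 and Sox11, the SoxC pair, at chr13:28952749-28952796 and chr12:27342166-27342213. It is shown as the closest resemblance between members. It is shorter than a sequenced read.
Sox4 and Sox11: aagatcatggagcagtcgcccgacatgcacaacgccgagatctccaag
Sox6 and Sox13, the SoxD pair, shared at most 16 bases. No value of Sox9, Sox4, Sox11 or Sox13 carried a fraction, against 3.60% of the values above 0 for Sox6 and 41.7% for Sox21. Exons of Sox21 overlap 713 bases of the antisense RNA Gm4675, which reached 45.1 CPM, and exons of Sox4 overlap 2616 bases of the antisense RNA Gm26735, which has no value in the table. Whether counting used the strand is not given in the sources used here, so that reads of these partners cannot be told apart.

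Sox9 was high in all 4 K17 high cells and low or at 0 in all basal layer cells. The K17 high cells 10, 11, 12 and 15 had 111, 471, 379 and 291 CPM of Sox9. Of the 11 basal layer cells, 6 had no Sox9 count, and the others had 0.222, 0.257, 0.534, 3.48 and 6.94 CPM. The intermediate layer cell had no Sox9 count. The groups did not overlap. In the summed cells, Sox9 was at 319 CPM (95% Poisson interval 313 to 326) in K17 high and 1.05 CPM (0.844 to 1.28) in basal layer cells, a difference of 7.29 on the log2(CPM + 1) scale. Without basal layer cell 8 the basal layer sum was 0.475 CPM. Of 10601 genes with at least 10 CPM in either sum, 0.349% were higher in every K17 high cell than in every basal layer cell, and 0.0943% were lower in every K17 high cell. The members were chosen by these values, and the contrast is given as a description.

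Krt17, the keratin named in the label, had the same order as Sox9 over the 4 K17 high cells. In order of Sox9, from cell 10 through cells 15 and 12 to cell 11, Krt17 was at 1715, 2819, 3155 and 3902 CPM. These are 4 cells of 1 embryo, and the members were chosen by levels in them, so that the shared order is a description only. Among basal layer cells, Krt17 was highest in cell 2, at 613 CPM, and this cell had no Sox9 count, whereas the highest Sox9 value stood in cell 8, with Krt17 at 4.37 CPM. Krt8, a keratin of simple epithelia, was at 32.1, 72.7, 0 and 37.3 CPM in the same order of K17 high cells, so that cell 12 had Sox9 without Krt8.

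Shh, the ligand made by hair placodes, was present in 2 of the 16 cells. Basal layer cell 2 had 253 CPM of Shh with no Sox9 count, and K17 high cell 15 had 31.7 CPM of Shh with 291 CPM of Sox9. Cell 2 also held the sole Lhx2 and Dkk4 values of at least 10 CPM in the pool, at 32.3 and 106 CPM. These are a follicle regulator and a Wnt inhibitor of placodes.

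The SoxC genes were present far more widely than Sox9. Sox4 was at 368, 259, 674 and 571 CPM in K17 high cells 10, 11, 12 and 15. In basal layer cells it was at 34.2 to 958 CPM with a median of 136, and the groups overlapped. Cell 2 held the highest value. Without it, the summed basal layer cells fell from 214 to 141 CPM of Sox4, against 480.1 CPM in the K17 high sum. Sox11 was at 52.2, 232, 27.7 and 130 CPM in the K17 high cells and present in 4 of 11 basal layer cells, at 31.6 to 96.9 CPM, with at most 5.08 CPM in the others. Both groups overlapped in Sox11, and the difference of the sums was 2.22 on the log2(CPM + 1) scale, with 105 CPM in K17 high and 21.7 CPM in basal layer cells. Without K17 high cell 11 the K17 high sum of Sox11 was 64.6 CPM. The intermediate layer cell had 0.970 CPM of Sox4 and no Sox11 count.

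Sox6 leaned the other way. It was present in all 11 basal layer cells, at 12.3 to 211 CPM with a median of 80.6, and in 3 of 4 K17 high cells, at 76.9, 40.6 and 33.4 CPM in cells 10, 11 and 15. K17 high cell 12 had 0.223 CPM. The summed cells had 86.0 CPM (84.1 to 88.0) in basal layer and 35.1 CPM (33.02 to 37.4) in K17 high, a difference of -1.27 on the log2(CPM + 1) scale with overlapping cells. Without K17 high cell 10 its sum was 22.3 CPM of Sox6. The intermediate layer cell had 0.364 CPM.

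Sox13 and Sox21 had few counts in these cells. Sox13 had counts in basal layer cells 1 and 16, at 1.45 and 10.3 CPM, and in K17 high cell 10, at 0.583 CPM. Sox21 had counts in 4 basal layer cells, at 0.257 to 7.76 CPM, and in K17 high cell 15, at 12.9 CPM. Cell 15 was the sole paired cell with Sox9, Shh and Sox21 all present.

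**Figure D1:**
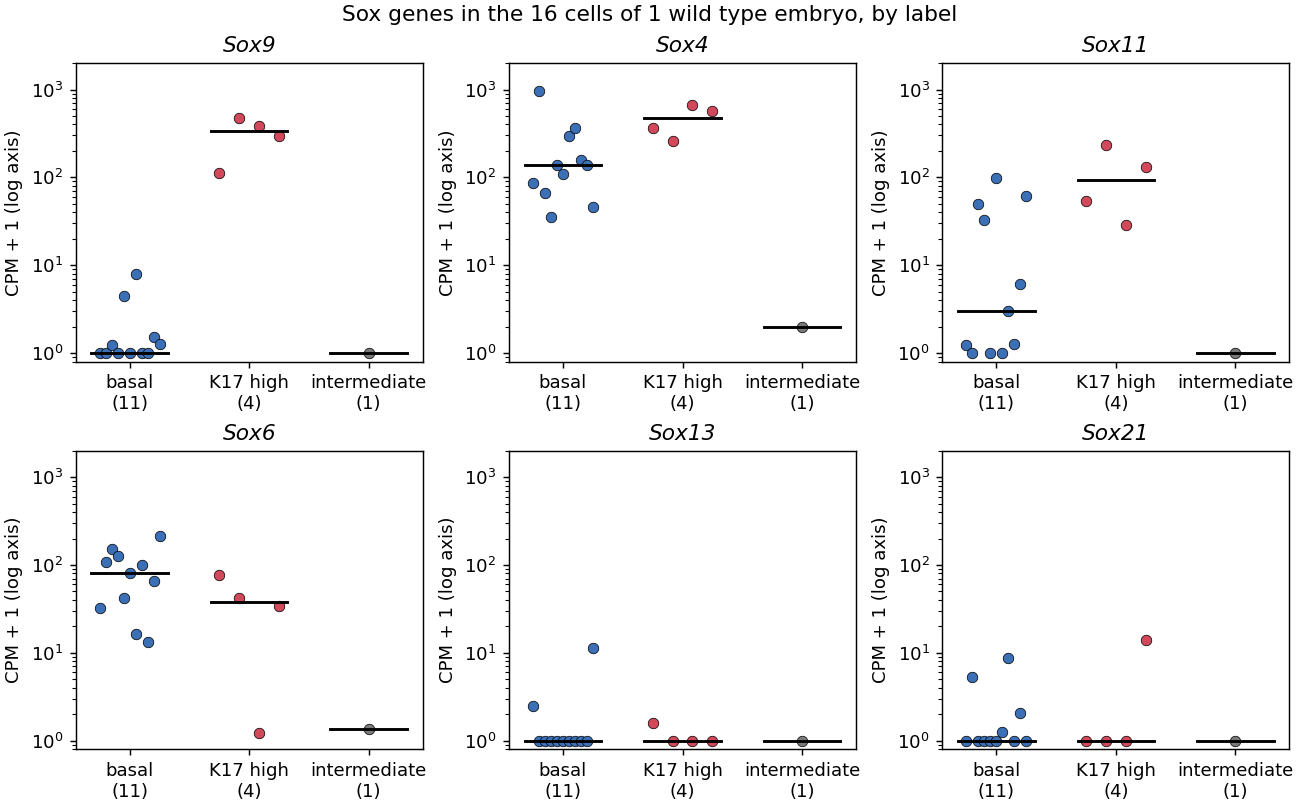
Each point is 1 of the 16 labelled cells of embryo WT01, placed by label on the x axis (11 basal layer, 4 K17 high, 1 intermediate layer) and by CPM + 1 on a logarithmic y axis, and bars are medians over cells. The 4 K17 high cells, at 111 to 471 CPM, lie apart from all others for Sox9 and among the basal layer cells for Sox4, while Sox6 reaches its highest values in basal layer cells.

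Over the whole table, 5.57% of the 10601 genes were at least 4-fold higher in the K17 high sum and 6.8% at least 4-fold lower. Of the 6 members, 4 passed the filter of 10 CPM, Sox9 and Sox11 were past 4-fold higher and none was past 4-fold lower. Without K17 high cell 11, the difference of Sox11 was 1.53 on the log2(CPM + 1) scale and Sox9 was the 1 member past 4-fold higher. The median log2 difference was 1.69 over the 4 members that passed and 0.98 over all 6, against 0.00 for all genes tested. The members were chosen by levels in these cells, so that this difference in medians is part of the choice and not a result. Among the 13 other Sox genes, Sox7, an endothelial SoxF factor, had 74.7 CPM in K17 high cell 11 and no count in the other paired cells. Sox12 was at 1.995 to 93.3 CPM in K17 high and 0.237 to 102 CPM in basal layer cells, and Sox15 at 0.570 to 45.5 CPM and 0 to 38.2 CPM, and neither separated the groups. Sox8 was present in basal layer cell 16 alone, at 22.9 CPM.

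The authors read the K17 high label as periderm, the flat outer layer of embryonic epidermis. Of the 10 genes on the periderm list, only Krt17 and Grhl3, a factor of epidermal barrier formation, were past 4-fold higher in the K17 high sum, and none of the 4 that passed the filter was past 4-fold lower. The label is named for Krt17, so that its higher level is part of the label. Krt4, Krt23, Krt19 and Rhov had no count in any K17 high cell, Krt6a was at most 0.668 CPM and Sbsn at most 1.73 CPM. The basal keratins were at 1041 to 2255 CPM for Krt5 and 1508 to 4059 CPM for Krt14 in these cells. The defining periderm keratins Krt4 and Krt6a were thus at or near 0 in the 4 labelled K17 high cells. Among the unlabelled columns with at least 100 CPM of Sox9, by contrast, the column with 604 CPM of Sox9 had 11649 CPM of Krt4 and the one with 1764 CPM had 4009 CPM of Krt6a. Without K17 high cell 12, Grhl3 was not past 4-fold higher (1.20 on the log2(CPM + 1) scale).

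Genes of hair follicle progenitors were mixed. Of the 12 on that list, 7 passed the filter, and 3 were past 4-fold higher in the K17 high sum and none past 4-fold lower. Ptch1, the Shh receptor and itself a target of the pathway, was at 13.1 to 341 CPM in K17 high and 0 to 24.97 CPM in basal layer cells. Tbx1 was at 0 to 103 CPM in K17 high cells, with no count in any basal layer cell, and Runx1 at 1.75 to 69.6 CPM against 0 to 38.5 CPM. Without K17 high cell 11 or 15, Runx1 was not past 4-fold higher (1.73 and 1.86 on the log2(CPM + 1) scale). Gli2, a transcription factor of the Shh pathway, had a difference of 1.64 on the log2(CPM + 1) scale. Lgr5 and Vdr had no count in either group. Of the 12 placode genes, 10 passed, none was past 4-fold higher, and Bmp2, Fgf20 and Ccn2 (listed under its older symbol Ctgf) were past 4-fold lower. Bmp2 stayed so whichever labelled cell was left out. The call of Fgf20 rested on basal layer cell 2, without which its difference was 1.74 on the log2(CPM + 1) scale, and it was also lost without K17 high cell 10 or 11 (-1.93 for both). That of Ccn2 was lost without K17 high cell 12 or 15 or basal layer cell 1, 2 or 9, at -1.93 to -1.47. Of the 8 cartilage genes, 2 passed, with Hapln1 past 4-fold lower, although it no longer passed the filter without basal layer cell 7 or 13, and Col2a1 and Acan had no count in K17 high cells. The medians of the genes that passed were 1.64 for follicle progenitor, -0.51 for placode, -2.48 for cartilage and 1.95 for periderm genes. The median of all genes tested was -0.0049. The periderm value includes Krt17, for which the label is named, and the cartilage value rests on Hapln1 and the member Sox6 alone. The lists were chosen with earlier results of these data known, so that these medians are descriptions.

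The pool of columns was divided by the rule into keratin and collagen states. Basal columns had Krt5 and Krt14 of at least 300 CPM and Krt8 under 100. Simple columns had Krt8 and Krt18 of at least 100 CPM and Krt5 and Krt14 under 100. Mesenchymal columns had Col1a1 and Col3a1 of at least 100 CPM. This gave 54 basal, 66 simple and 79 mesenchymal columns. A single column met both of the latter definitions and was counted in both, and 39 columns met none. The states are ranges of these measured values, on which the columns were selected, and do not stand for genotypes. Few columns lay near a threshold, with 1, 2 and 2 columns of the 3 states within 1.5-fold of one. The basal column with the highest Krt8 had 72.7 CPM, and a column left out for its Krt8 had 104 CPM.

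Markers fixed for each state were at a median of at least 10 CPM in 6 of 6 cases for basal, 5 of 5 for simple and 7 of 7 for mesenchymal columns. Each list includes the keratins or collagens that define its state, and for these the outcome was fixed by the selection. Some other markers were not specific. Epcam and Cdh1 of the simple list had medians of 360 and 370 CPM in basal columns. Krt15 and Trp63 of the basal list had medians of 143 and 80.7 CPM in simple columns. Dcn, a matrix gene on the mesenchymal list, was also present in 53 of 54 basal and 56 of 66 simple columns, at medians of 483 and 369 CPM, and its part in the values was not tested. Col3a1, which with Col1a1 defines the mesenchymal columns, was present in 36 of 66 simple columns, at a median of 82.9 and up to 3742 CPM. Among mesenchymal columns, Krt8 was present in 1 of 79. Pdgfra, which encodes CD140a, was present in 66 of them at a median of 256 CPM. These columns thus do not match the CD140a-negative sort and the Krt8 screen described for the series. The sample labels name 70 knockout cells as mutant fibroblast, and the paper describes high contamination of the knockout surface cells with dermal cells. Which columns hold the cells with that label is not known here. A simple column with 72.6% of its counts on globin genes stood apart. It had no count of Sox9, Sox4 or Sox11, and without it no share of columns with Sox9 and no median level by state moved beyond its interval. The highest Pearson correlation of log2 values between any 2 columns was 0.765, and no pair of columns held the same values.

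Sox9 was present in 75 columns of the pool, or 31.6% (exact binomial interval 25.8% to 37.98%). It was either high or near 0 in most columns of each state. In basal columns it was present in 26 of 54 (48.1%, 34.3% to 62.2%), with a median of 5.50 and a highest value of 1412 CPM. In mesenchymal columns it was present in 29 of 79 (36.7%, 26.1% to 48.3%), with a median of 0.537 and a highest value of 603 CPM. In simple columns it was present in 8 of 66 (12.1%, 5.38% to 22.5%), with a median of 0 and a highest value of 1012 CPM. The interval of the simple share did not reach those of the other states, and those of basal and mesenchymal columns overlapped. With presence set at 50 CPM the shares were 33.3% (21.1% to 47.5%) in basal, 9.09% (3.41% to 18.7%) in simple and 22.8% (14.1% to 33.6%) in mesenchymal columns, and the intervals of simple and mesenchymal columns overlapped. Without the 16 labelled cells the basal median of Sox9 was 21.3 CPM, and with median-of-ratios scaling it was 3.23. At least 100 CPM of Sox9 was reached by 12 basal, 6 simple and 4 mesenchymal columns, so that mesenchymal columns with Sox9 held mostly moderate levels.

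Krt17 of at least 300 CPM was found in 22 columns, of which 15 had Sox9 (68.2%). Seen from the other side, Krt17 was this high in 15 of 75 columns with Sox9 (20%, 11.7% to 30.8%) and in 7 of 162 columns without (4.32%, 1.76% to 8.70%). The 4 labelled K17 high cells are among the 15. In basal columns without the labelled cells, Krt17 was this high in 7 of 22 with Sox9 (31.8%, 13.9% to 54.9%). Without Sox9 it was this high in 2 of 17 (11.8%, 1.46% to 36.4%), and the intervals overlapped. A level of 1000 CPM was used besides the planned 300 CPM. Of 13 columns with at least 1000 CPM of Krt17, 12 had Sox9, at a median of 172 CPM over the 13, and the exception had 1375 CPM of Krt17. Of these 12, 4 are the labelled K17 high cells, whose values entered the choice of the members. Sox9 was present in 3 of 9 columns with 300 to 1000 CPM of Krt17, 3 of 6 with 100 to 300 CPM and 57 of 209 with less. The highest Krt17 value, 16431 CPM, came with 172 CPM of Sox9 and 1400 CPM of Sox11 in a column outside the states.

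High Sox9 also occurred without Krt17. A basal column with 1412 CPM of Sox9 had 1.44 CPM of Krt17, and another with 403 CPM of Sox9 had 0.828 CPM. None of the 6 simple columns with at least 100 CPM of Sox9 exceeded 3.67 CPM of Krt17, and the 4 such mesenchymal columns had no Krt17 count. Over all columns, the Spearman correlation of Sox9 with Krt17 was 0.13, and it was -0.0885 over columns in which either gene had a count. Within basal columns it was 0.29, and 0.22 in the 39 basal columns not tied to a label. These correlations are weak descriptions over columns that differ in state, and no order was read from them.

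Basal columns with Krt17 under 100 CPM were compared by whether they are labelled. Of the 9 labelled basal layer cells, none had Sox9 (0%, 0% to 33.6%), which reached 6.94 CPM at most. Of the 26 unlabelled basal columns, 13 had Sox9 (50%, 29.9% to 70.1%), with overlapping intervals, at a median of 7.42 and a highest value of 1412 CPM. Of the 6 unlabelled basal columns with at least 1000 CPM of Krt17, 5 had Sox9. Since the embryo and genotype of the unlabelled columns are not known here, these shares cannot be tied to either.

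Krt8 and Sox9 were found together in few columns. Krt8 was at least 100 CPM in 15 of 75 columns with Sox9 (20%, 11.7% to 30.8%) and in 77 of 162 without (47.5%, 39.6% to 55.5%), and the Spearman correlation over all columns was -0.18. The rule for basal and simple columns fixes Krt8, so that this follows the state. Within simple columns, where all had Krt8, the correlation was 0.28. Shh was present in 6 columns, and 1 of them, K17 high cell 15, had Sox9. The other 5 had at most 0.566 CPM of Sox9, at 14.6 to 253 CPM of Shh, and 3 of them were simple columns. The Spearman correlation of Sox9 with Shh was -0.10, over a pool in which 11 columns had any Shh count.

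**Figure D2:**
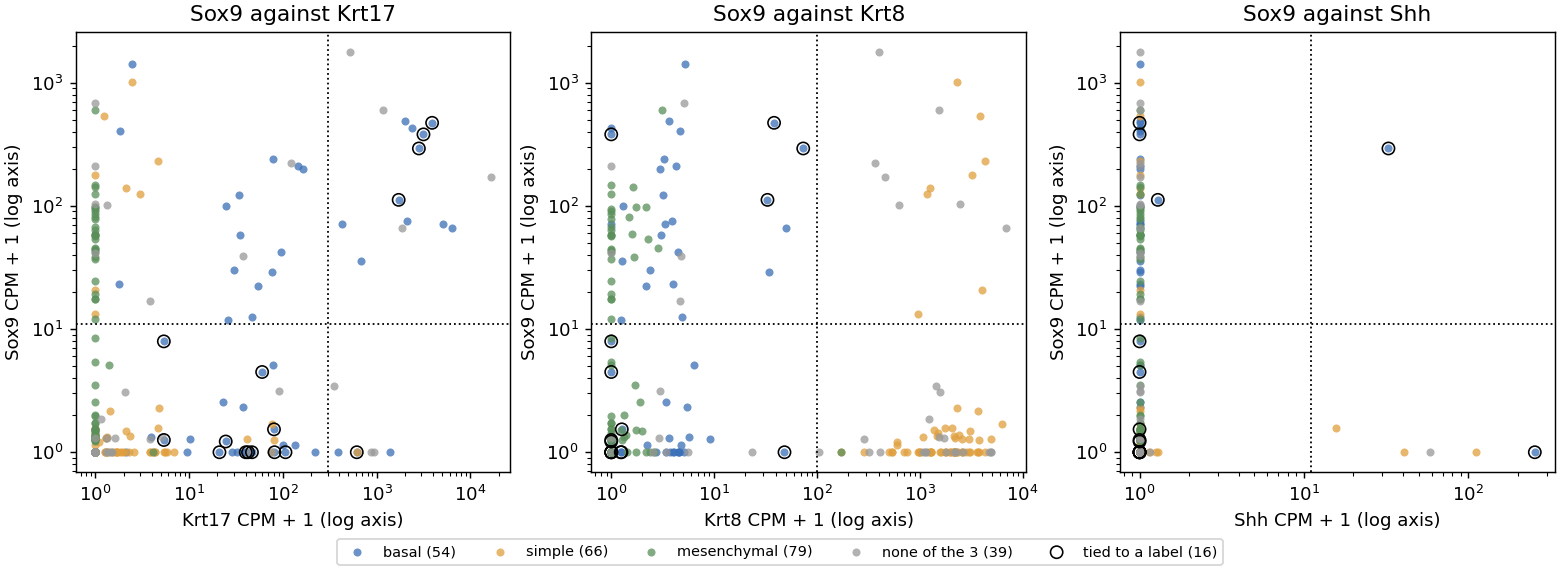
Sox9 (y axis) is plotted against Krt17, Krt8 and Shh (x axes), all as CPM + 1 on logarithmic axes, with 1 point per column colored by state, rings for the 16 labelled cells and dotted lines at the levels called present or high. Nearly all columns at the far right of the Krt17 panel lie above the Sox9 line, and 1 of the 6 columns with Shh does.

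Ptch1, the receptor of Shh, was more often present in basal columns with Sox9, although the intervals overlapped. It was present in 17 of 26 basal columns with Sox9 (65.4%, 44.3% to 82.8%) and 8 of 28 without (28.6%, 13.2% to 48.7%), with medians of 35.6 and 0.298 CPM. Without the 16 labelled cells, the counts were 13 of 22 (59.1%, 36.3% to 79.3%) and 7 of 17 (41.2%, 18.4% to 67.1%), where the intervals again overlapped. Gli2 was present in 23 of 26 and 18 of 28 basal columns, and Tbx1 in 4 of 26 and 0 of 28. Of the 12 basal columns with at least 100 CPM of Sox9, a level chosen after the values were seen, 11 had Ptch1, and 7 of the 8 that are not labelled did. None of the 6 simple or 4 mesenchymal columns with as much Sox9 reached 10 CPM of Ptch1, which was present in 14 of 66 simple and 17 of 79 mesenchymal columns in all, so that these few columns are not set apart by it. The exception among basal columns, with 403 CPM of Sox9, had 0.255 CPM of Ptch1 and 100.3 CPM of Dct, a melanocyte enzyme. Edar, a placode receptor, was present in 10 of 26 and 9 of 28 basal columns, and Wnt10b, a placode ligand, in 13 of 26 and 17 of 28.

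Sox4 was present in 202 columns, the most of any Sox gene. It was found in 53 of 54 basal, 58 of 66 simple and 61 of 79 mesenchymal columns, at medians of 71.1, 96.1 and 30.3 CPM. The shares were 98.1% (90.1% to 99.95%), 87.9% (77.5% to 94.6%) and 77.2% (66.4% to 85.9%), and the intervals of basal and mesenchymal columns did not overlap. The highest Sox4 value, 2856 CPM, stood in a column outside the states with 2452 CPM of Krt8 and 5.64 CPM of Krt18. Per kilobase of exon, the median level of Sox4 was 14.8 CPM in basal, 20.04 in simple and 6.32 in mesenchymal columns, above the medians of all other members in each state. Sox9 was at 1.33, 0 and 0.130 CPM per kilobase, Sox6 at 2.75, 0.00231 and 0, and Sox11 at 0.0801, 3.10 and 3.13.

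Sox11 had its lowest median in basal columns, although the intervals of the shares overlapped. It was present in 21 of 54 basal (38.9%, 25.9% to 53.1%), 34 of 66 simple (51.5%, 38.9% to 64.01%) and 45 of 79 mesenchymal columns (56.96%, 45.3% to 68.1%), at medians of 0.666, 25.7 and 26.04 CPM, with overlapping intervals. With the state thresholds doubled, the medians were 1.001, 2.38 and 15.5 CPM. At least 100 CPM was reached by 3 basal, 20 simple and 16 mesenchymal columns. The highest value, 1896 CPM, was in a simple column. In the summed columns Sox11 was 2.34 higher in simple and 1.69 higher in mesenchymal than in basal columns, on the log2(CPM + 1) scale. Between simple and basal sums, 5.77% of 10762 genes were at least 4-fold higher and 3.58% at least 4-fold lower. Sox11 was the 1 member past 4-fold higher and Sox6 the 1 member past 4-fold lower, of 4 that passed the filter.

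Sox6 was mostly a gene of the basal columns. It was present in 40 of 54 basal (74.1%, 60.4% to 85.04%), 18 of 66 simple (27.3%, 17.03% to 39.6%) and 3 of 79 mesenchymal columns (3.80%, 0.790% to 10.7%), and the 3 intervals did not overlap. Its medians were 40.7, 0.0343 and 0 CPM and its highest values 365, 190.2 and 20.5 CPM. Between mesenchymal and basal sums, 9.63% of 10971 genes were at least 4-fold higher and 6.33% at least 4-fold lower. Sox6, at -5.55 on the log2(CPM + 1) scale, was the 1 member past 4-fold lower, and no member was past 4-fold higher. Sox9 differed by -1.90 and Sox4 by -1.45 in the same contrast, against a median of -0.26 over all genes tested.

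Sox13 was present in 13 columns, with 1 basal, 7 simple, 2 mesenchymal and 3 outside the states. The highest value was 105 CPM, in a simple column, and the sole basal column was labelled cell 16, at 10.3 CPM. Of the 13 columns, 12 had Sox4, 10 had Sox11 and 2 had Sox9, against 85.2%, 49.8% and 31.65% of all columns. Sox21 was present in 2 columns, and both had Sox9. These were K17 high cell 15 and the column with the most Sox9 of all, which had 48.6 CPM of Sox21, 1764 CPM of Sox9, 25108 CPM of Krt14, 4009 CPM of Krt6a and 514 CPM of Krt17. With Krt8 at 405 CPM, this column belonged to no state. Counts of Sox21 below 10 CPM occurred in 9 further basal columns and in no simple or mesenchymal column.

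**Figure D3:**
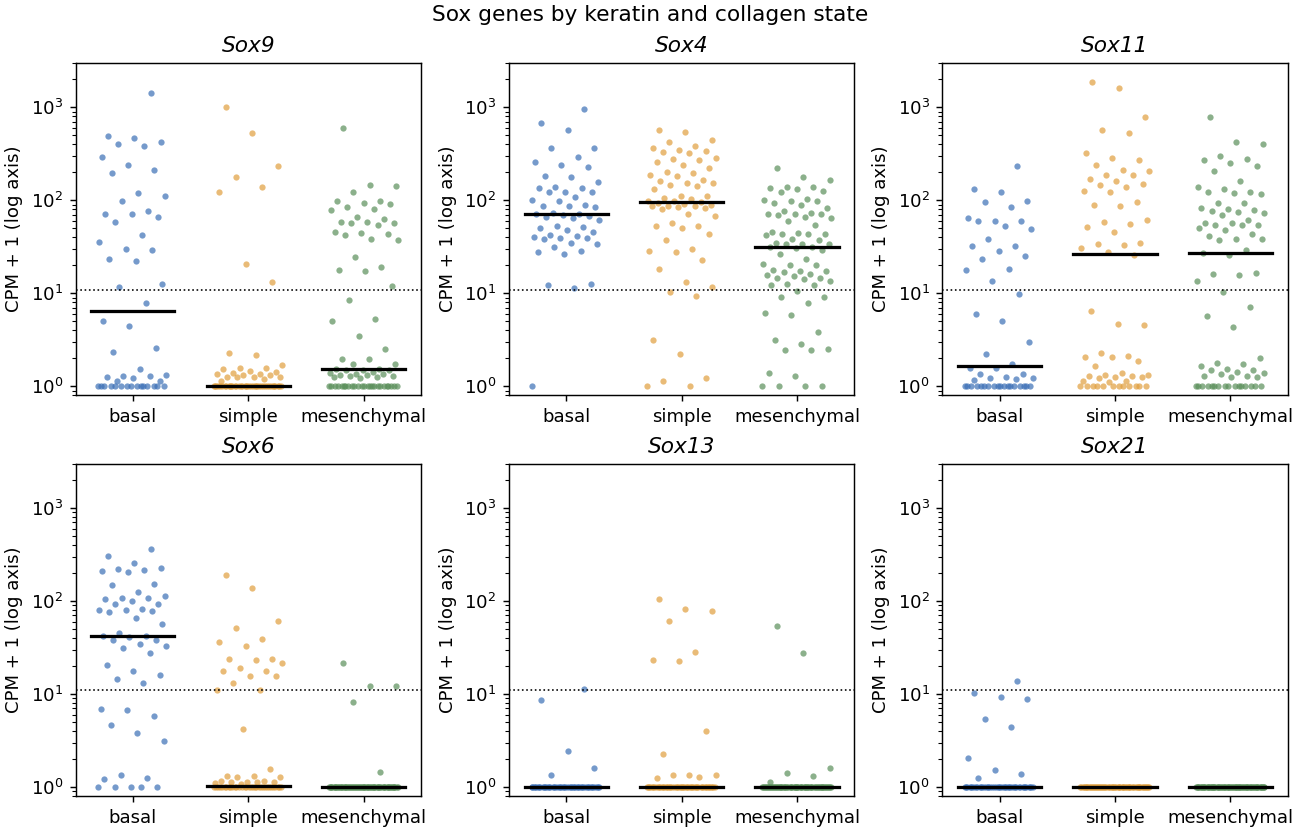
Each point is 1 column, placed by state on the x axis (54 basal, 66 simple, 79 mesenchymal) and by CPM + 1 on a logarithmic y axis, with bars for medians and a dotted line at 10 CPM. Sox4 lies above the line in most columns of each state, Sox6 mainly in basal columns, and Sox9 and Sox11 split into columns with high values and columns near 0.

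Members were combined in most columns. Of the 54 basal columns, 25 had 2 members present, 18 had 3, 8 had 4 and 1 had 5. Of the 66 simple columns, 21 had 1, 24 had 2, 12 had 3 and 5 had 4. Of the 79 mesenchymal columns, 37 had 2 and 15 had 3, and none had more. No member was present in 1 basal, 4 simple and 6 mesenchymal columns. Of the 75 columns with Sox9, 61 had Sox4, 41 had Sox11 and 24 had Sox6. Over all columns, 85.2% had Sox4, 49.8% had Sox11 and 30.4% had Sox6, so that these counts set no pair apart. The Spearman correlations of Sox9 with Sox4, Sox11 and Sox6 over all columns were -0.0401, -0.00319 and -0.00013. Within the 26 basal columns with Sox9, all had Sox4, 18 had Sox6 and 11 had Sox11, against 27, 22 and 10 of the 28 without.

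The gene most like each member was sought by Spearman correlation over all columns, among 12388 genes with at least 10 CPM in at least 20 columns. Sox6 had the closest neighbours. These were Kremen2 (0.64), Krt14 (0.63), the hemidesmosome collagen Col17a1 (0.62), Krt5 (0.61) and the serpin Serpinb5 (0.61). Sox4 came nearest to Marcksl1 (0.50), to Tfap2b and Tfap2a, AP-2 transcription factors of surface ectoderm (0.44 and 0.43), to Tes (0.42) and to Klhl24 (0.42). Among the genes nearest to Sox11 were the imprinted gene Nnat (0.39), the muscle filament gene Des (0.37), Slc38a1 (0.36) and Dbn1 (0.34).

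The neighbours of Sox9 were weaker. The 10 nearest were Ankmy1, Gm6166, Wdr5b, Gm47071, Ifitm3, Fabp5, Cnp, Gm2065, Scara3 and Gm15884, at 0.33 to 0.30, of which Fabp5, a fatty acid carrier of keratinocytes, had medians of 747 CPM in basal, 18 in simple and 152 in mesenchymal columns. Those of Sox13 were 1700096K18Rik, Bmp2k, Gm17690, Znhit2 and Hpcal1, at 0.31 to 0.26. Those of Sox21 were Gm13219, the stress keratin Krt16, Mpped1, Car12 and Mab21l3, at 0.39 to 0.32. With 11 columns holding any Sox21 count, these last values rest on few columns. Points in all these correlations share their state and depth.

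Among the other Sox genes, 31 of the 33 columns with Sox15 and all 5 with Sox10 had Sox4. Sox4 was present in 85.2% of all and 98.15% of basal columns, so that these counts set neither gene apart. Sox15, a SoxG factor, was present in 27 of 54 basal columns (50%, 36.1% to 63.9%), 2 of 66 simple and no mesenchymal column. Of its 33 columns, 23 had Sox6, which was present in 74.1% of basal and 30.4% of all columns. Exons of Sox15 overlap 31 bases of Mpdu1 on the other strand, and 41.3% of its values above 0 carried fractions. Sox12 was present in 16 basal, 18 simple and 14 mesenchymal columns. Sox14 was present in 5 simple columns and 1 outside the states, with up to 395 CPM. Sox1, Sox3 and Sox17 had no count in any column. Sox18, like Sox17 a factor of endothelial cells, was present in 1 mesenchymal column and Sox30 in 2, and Sox7 in 2 basal columns, both with Sox9, at 471 and 120.3 CPM.

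Of the SoxE relatives of Sox9, Sox10 was found with Sox9 in 2 of 5 columns and Sox8 in 5 of 8. Sox9 was present in 31.65% of all columns. Sox10, a factor of neural crest, glia and melanocytes, was present in 5 columns, all outside the states, at 282 to 905 CPM. A pair of these columns had Dct at 2050 and 2218 CPM and no Sox9 count. The other 3 had no Dct count. Of these 3, 2 had Sox9, at 680 and 208 CPM, together with Sox8 at 270.0 and 52.4 CPM. The third, with 0.293 CPM of Sox9, had no Sox8 count. Sox5 was present in all 3, at 244 to 460.0 CPM, and in 1 of the columns with Dct.

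Sox8 was present in 4 mesenchymal columns, at 77.6 to 313 CPM, and each had Isl1, a factor of motor neurons and hindlimb mesenchyme, at 80.8 to 322 CPM. Sox9 was at 0 to 143 CPM and Sox11 at 207 to 427 CPM in these columns. Sox2, a factor of neural and Merkel progenitors, was present in 7 columns, 4 of them with Sox9 at 138 to 1012 CPM. The column with the most Sox2, 84.6 CPM, had 489 CPM of Atoh1, the Merkel cell factor, 1261 CPM of Sox4 and 0.284 CPM of Sox9.

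**Figure D4:**
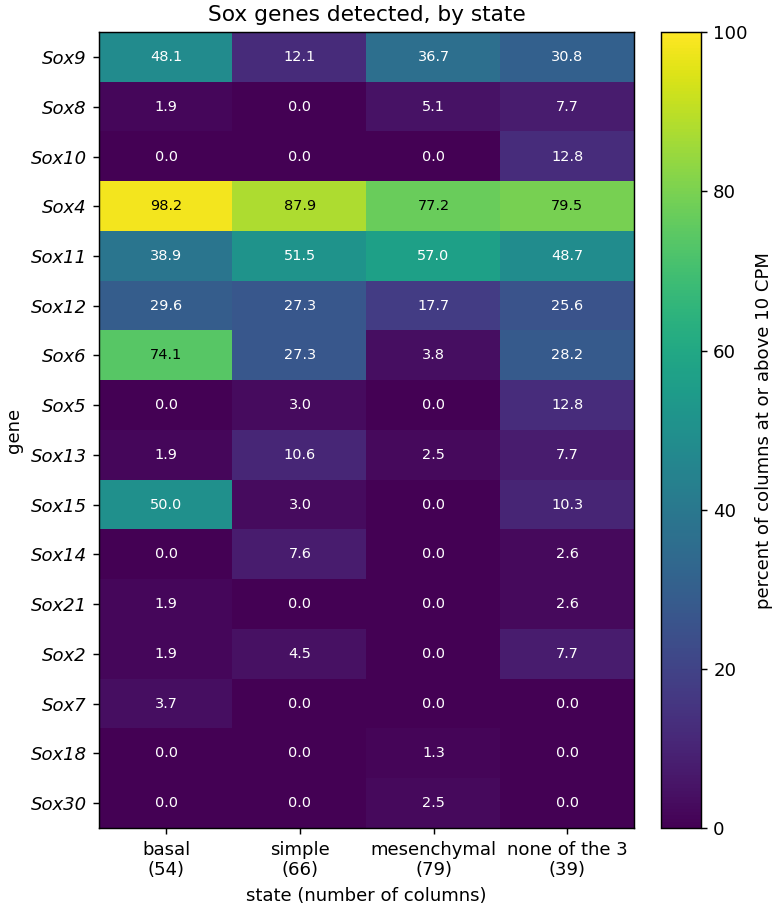
Cells give the percent of columns (labelled in each cell) with at least 10 CPM of each of 16 Sox genes, in the 54 basal, 66 simple and 79 mesenchymal columns and the 39 columns of no state, on a color scale from 0 to 100. Sox4 is widespread, Sox6 and Sox15 reach 74.1% and 50% in basal columns, and Sox10 appears solely outside the states.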

How the data were processed

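SMART-Seq HT libraries of single cells were sequenced as paired reads. The authors aligned them to mm10 with HISAT2, counted them on Ensembl genes with featureCounts, and deposited the estimated counts, not normalized, of every gene. Settings for strand and multiple alignments are not given in the sources used here. Of the values above 0, 23.2% carried a fraction, and all were rounded. Symbols matched 55154 of 55335 genes. Sample groups came from the labels, and 16 columns were tied to samples by run. CPM used column totals of 2701500 to 19197138. Columns of 221 cells without a label entered only the pool. Fold calls used log2(CPM + 1) of summed columns, at least 10 CPM in either sum. They were run on simulated counts with planted changes. Those counts did not model genes found in a single cell, so that the run does not cover calls resting on such genes. Named genes were the members, other Sox genes at 10 CPM, genes of the rule, fixed lists and nearest genes by Spearman correlation. Members and lists were chosen with earlier results of these data known. Alternatives were fractional counts, other scalings (edgeR 4.0.16 TMM, median of ratios), thresholds, thinning to 1000000 counts and omitted cells. Python 3.11.15, pandas 2.3.3 and scipy 1.17.1 were used. Some genes are not reported here.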

Additional observations from a re-analysis of the deposited data

Results flagged for a closer look

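Among the 4 K17 high cells, 9 genes were checked for a cell whose gap to its nearest neighbour took more of the range than Dixon's limit. Chance passes this limit in about 1 of 20 groups of continuous values, a rate that does not hold where 3 of 4 cells are at 0 and the ratio is 1 whatever the value, so that these are descriptions of single cells. Sox21 was set apart by cell 15 (12.9 CPM against no count in the other 3, a gap of 1 times the range). Sox13 was set apart by cell 10 (0.583 CPM, 4 counts, against no count, again 1 times the range). Shh was set apart by cell 15 (31.7 CPM against at most 0.292 CPM, a gap of 0.991 of the range). Outside the columns compared by state, Sox10 reached 905 CPM in a column that also held 680 CPM of Sox9, whereas no column of the 3 states exceeded 0.853 CPM of Sox10.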

How the results depend on the processing

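Cells of 1 embryo give no replicate error, so that a value is called moved where it left its 95% counting interval, or, for correlations, changed by 0.1 or more. Sox9 in the K17 high sum (319 CPM) was 337 CPM with totals without rRNA-rich, CT010467.1 and globin genes, an alternative chosen after seeing the data, and 271 to 383 CPM when each cell was left out. Sox9 in the basal layer sum (1.05 CPM) was 0.475 to 1.16 CPM when each cell was left out, the lowest without cell 8. With presence at 50 CPM, Sox9 was present in 33.3% of basal, 9.09% of simple and 22.8% of mesenchymal columns. Without the 16 paired cells, 0% of columns with Sox9 had Shh. The correlation of Sox9 with Krt17 (0.13) was 0.29 as Pearson on log2(CPM + 1). Over columns in which either gene has a count it turned to -0.0885, and those with Krt8 and Shh were -0.37 and -0.28; the cause was not tested. All 162 state medians under other settings stayed within their intervals, which are wide: with state thresholds doubled the simple median of Sox11 fell from 25.7 to 2.38 CPM, and without the paired cells the basal median of Sox9 rose from 5.50 to 21.3 CPM. With each labelled cell left out, an alternative added after seeing the data, 1 to 2 members were past 4-fold higher and 0 past 4-fold lower. Of 60 levels of the other 5 members under other scalings, 51 stayed within their counting interval and 9 moved. With a cell left out, 27 of 75 levels stayed within it and 48 moved. No paired analysis was possible because the cells come from 1 embryo and no test of a difference was run. Sox13 and Sox21 had no count in most columns, and the part of depth in this was not tested. A floor of 3 counts over the 4 K17 high cells stands for 0.103 CPM.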
